A study of Mus musculus with 18 samples.

Results

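The pylorus, the segment that closes the stomach toward the gut, was compared with the adjoining duodenum in mouse embryos at E16.5 (E, embryonic day). The comparison uses 6 of the 18 arrays of the series, 3 pyloric and 3 duodenal, chosen by their tissue and age labels. The 12 other arrays hold stomach of E16.5 and stomach, pylorus and duodenum of E14.5. All embryos were C57Bl/6J, and the labels name no treatment or genetic change in any group. Stomach close to the pylorus (named antrum in the labels' protocol), pylorus and duodenum were cut as neighbouring segments from 95 embryos of E16.5 and 174 of E14.5, and the pieces were mixed at random into 3 pools for each segment and age. Each array is therefore a pool of many embryos, and p-values measure the spread between pools, not between embryos. Of the arrays used only for the comparison across ages, duodenal arrays 1 and 2 of E14.5 differed by an SD of 0.08 over bright probe sets, against 0.166 to 0.486 in the other 17 pairs of like arrays, and were averaged and counted as 1 sample. Tissue carried over from the neighbouring segment cannot be told apart from expression in pyloric cells, and in bulk RNA fewer cells of a type cannot be told apart from less RNA per cell.

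The pylorus carries a muscular sphincter that controls how the stomach empties, and at its far edge stomach epithelium gives way to intestinal epithelium within a short distance. Intestinal epithelium depends on Cdx2 and fills with absorptive enterocytes in late fetal life, whereas antral epithelium makes mucus, gastrokines and gastrin. In the chick and mouse the mesenchyme beneath takes part in setting this pattern: Barx1 marks stomach mesenchyme, and Nkx2-5, Gata3 and Sox9 mark the forming sphincter.

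All values are log2 intensities of the probe set that stands for a gene, and 18193 genes were tested. A difference is pylorus minus duodenum on the log2 scale with its SE from limma, so 1 unit is a 2-fold difference, and a gene is called when its Benjamini-Hochberg adjusted p is under 0.05. At E16.5, 6731 genes were called, which is 37.0% of those tested. Of them 3564 (19.6% of all genes) were higher and 3167 (17.4%) lower in pylorus, and the median difference over all genes was -0.03. The difference was 2-fold or more for 861 of the higher and 699 of the lower genes, and 4-fold or more for 162 and 124. The 3 pyloric pools lay wholly above the 3 duodenal pools for 4018 genes (22.1%) and wholly below them for 3999 (22.0%). The split depends on the scaling between arrays: with each array centred on its median, 8284 genes were called, the median of all genes became -0.17, and the share of calls that were higher went from 52.9% to 31.0%. Against the stomach of the same age, 3894 genes (21.4%) were called, 2263 (12.4%) higher and 1631 (8.96%) lower in pylorus. Without pyloric pool 2 that count was 2482. Both comparisons share the 3 pyloric pools.

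Of the region markers, Barx1, Nkx2-5 and Gata3 separated pylorus from duodenum, whereas the intestinal regulator Cdx2 did not. Markers were chosen with earlier results of these data known, so they are no independent check of the tissue labels. Barx1, the stomach mesenchyme homeobox gene, read 10.76, 10.52 and 10.30 in the 3 pyloric pools and 6.88, 7.09 and 6.97 in the duodenal ones. The groups lay far apart, at 3.55 ± 0.23 (adjusted p = 2.71e-07). Nkx2-5 read 8.75, 8.49 and 8.40 in pylorus, 7.16, 7.01 and 7.08 in duodenum and 7.21, 7.36 and 7.12 in stomach. It was thus higher in every pyloric pool than in either neighbour, by 1.46 ± 0.18 over duodenum (adjusted p = 2.52e-05) and by 1.32 ± 0.18 over stomach (adjusted p = 0.000119). Gata3, which acts beside Nkx2-5 in the sphincter, showed the same order, with 7.09, 6.97 and 6.37 in pylorus, 5.18, 4.99 and 4.98 in duodenum and a stomach mean of 5.46 ± 0.47 (SD, n = 3). Its difference from duodenum was 1.76 ± 0.35 (adjusted p = 0.0011). Cdx2, in contrast, read 10.86, 10.79 and 10.54 in pylorus and 10.82, 10.75 and 10.79 in duodenum, so the groups overlapped (-0.06 ± 0.24, adjusted p = 0.877). Both were far above the stomach, where Cdx2 read 6.69, 7.63 and 6.54. The stomach pools also held genes of the acid-secreting corpus and of the squamous forestomach, such as Atp4a (12.07, 12.40 and 13.02) and the keratin Krt4 (11.51, 12.25 and 12.55), so every comparison with stomach is with tissue that carries these markers.

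**Figure D1:**
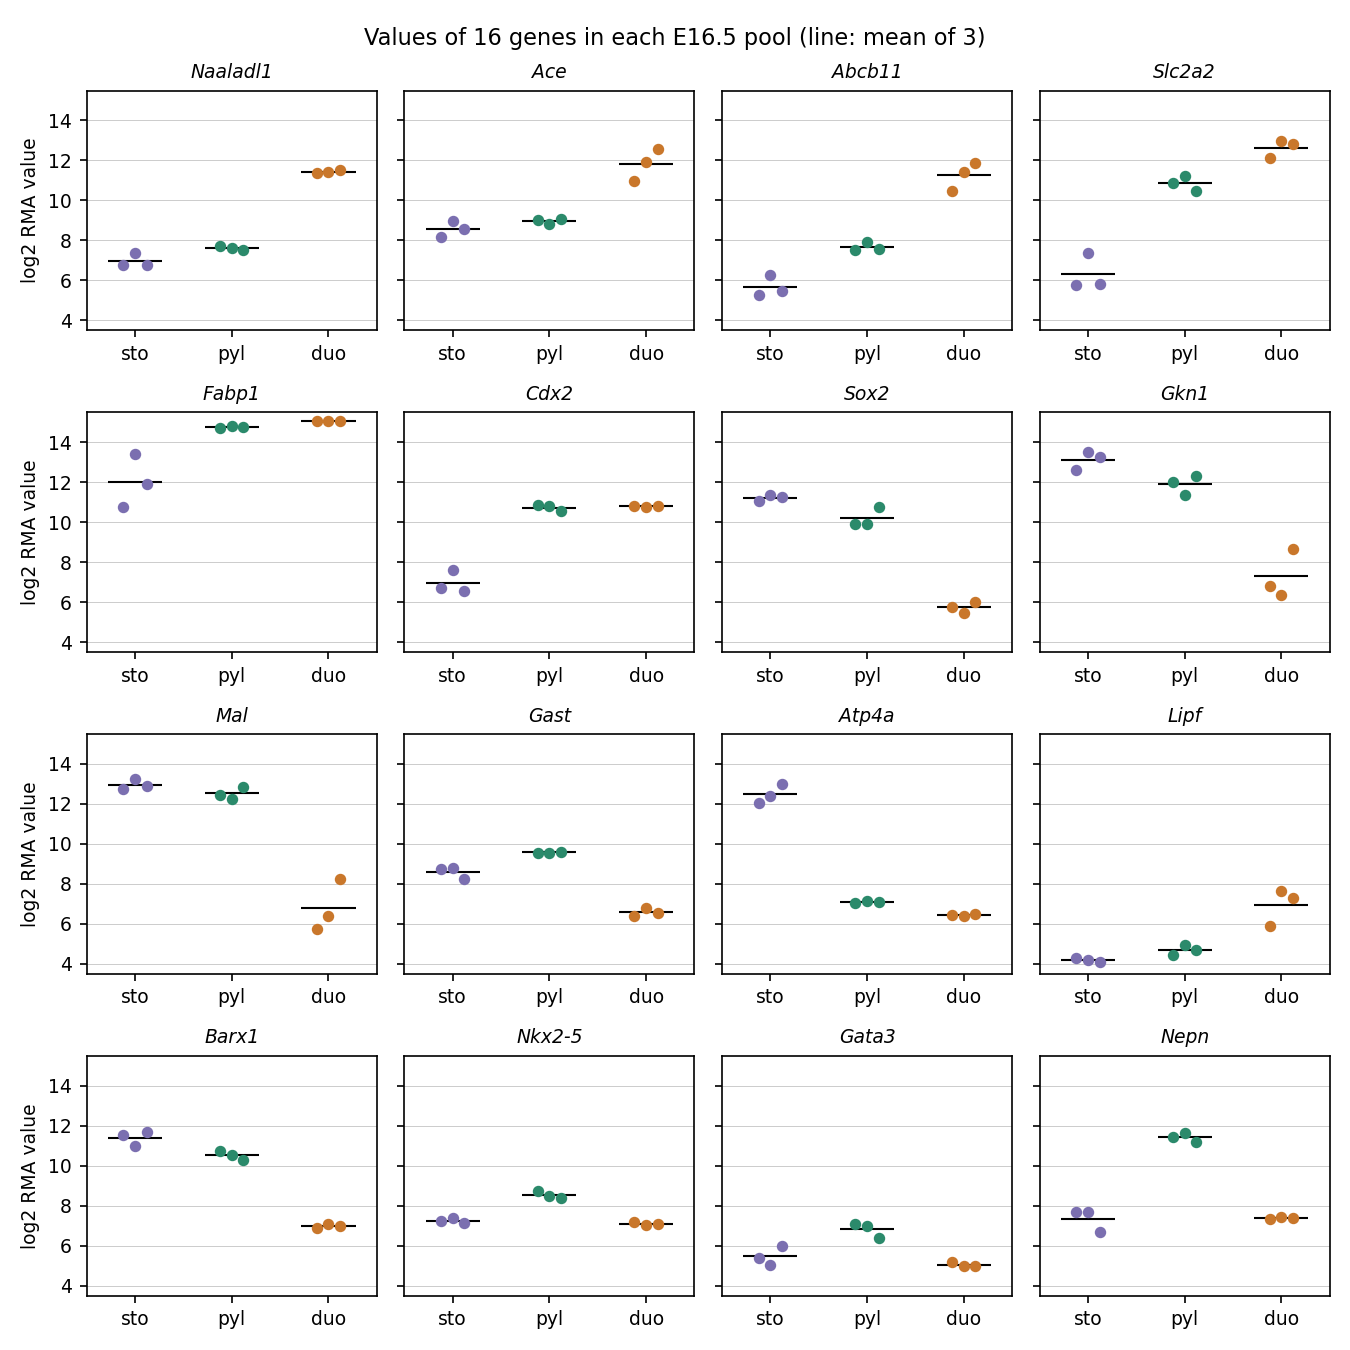
Log2 intensity of 16 genes (vertical axes) in each of the 3 pools of stomach, pylorus and duodenum at E16.5; each point is 1 pool and each line the mean of 3. Naaladl1 and Ace sit near the stomach pools in pylorus, Cdx2 sits with the duodenal pools, and Nkx2-5, Gata3 and Nepn are highest in pylorus.

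Over bright probe sets duodenal pool 1 differed from duodenal pools 2 and 3 by SDs of 0.486 and 0.447, against 0.249 between those. The SD of 0.486 was the largest of all pairs of like arrays. Several pools stood apart in genes of the early stress response or of other tissues. Immediate-early and heat-shock genes, which respond within minutes to stress, averaged 11.38, 9.47 and 9.62 in the duodenal pools against 9.31, 9.19 and 9.11 in the pyloric pools. Duodenal pool 1 was the high one, as Egr1, an early transcription factor, showed with 14.15, 11.33 and 11.66 against 9.29, 8.97 and 9.07 in pylorus. Of 20 such genes 5 were lower in pylorus, with a median of -0.77, beside 17.4% of all genes. The count was 2 without duodenal pool 1 (median -0.14) or without any one pyloric pool. Some erythroid transcripts were higher in the pyloric pools, chiefly 1 and 2. The 10 erythroid genes averaged 8.50, 8.26 and 7.59 in pylorus and 7.44, 7.07 and 7.17 in duodenum. Of them 4 were higher, with and without pyloric pool 1, and the others were not called (median of the list 0.47, lowest -0.30). Embryonic hemoglobin Hbb-y read 11, 10.39 and 8.67 in pylorus and 8.65, 6.13 and 7.05 in duodenum, so pyloric pool 3 and duodenal pool 1 nearly met.

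Liver genes ran the same way. The list of 14 averaged 9.43, 8.90 and 8.34 in the pyloric pools, highest in pool 1, and 8.06, 8.01 and 8.37 in the duodenal pools, and 5 were higher (2 without pyloric pool 1) and 1 lower (not called without any one pool but pyloric pool 2). Albumin (Alb) was the largest of these at 2.98 ± 0.70 (adjusted p = 0.0039). Pancreas genes averaged 7.45, 8.44 and 7.12 in pylorus and 7.07, 7.92 and 8.44 in duodenum, so the groups overlapped, and of 13 only Gcg, which enteroendocrine cells make too, was called. Among 14 endothelial genes 2 were lower in pylorus, a share under the 17.4% of all genes. They were Flt1 (-1.09) and Tie1 (-0.87), neither called without pyloric pool 3 (adjusted p = 0.0528 and 0.0683) or duodenal pool 1 (0.0512 and 0.078). Leukocyte genes were divided, 5 higher (3 without duodenal pool 1, pyloric pool 1 or pyloric pool 2) and 2 lower of 18. Of all genes 19.6% were higher and 17.4% lower, so these counts are not far from those shares. Csf1r, the macrophage growth factor receptor, was lower, at -1.81 ± 0.23 (adjusted p = 3.35e-05), whereas S100a8, a neutrophil protein, and Cd14 were higher by 2.63 ± 0.54 (adjusted p = 0.0015) and 2.16 ± 0.32 (adjusted p = 0.000109). The part of these tissues in the results that follow was not tested.

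**Figure D2:**
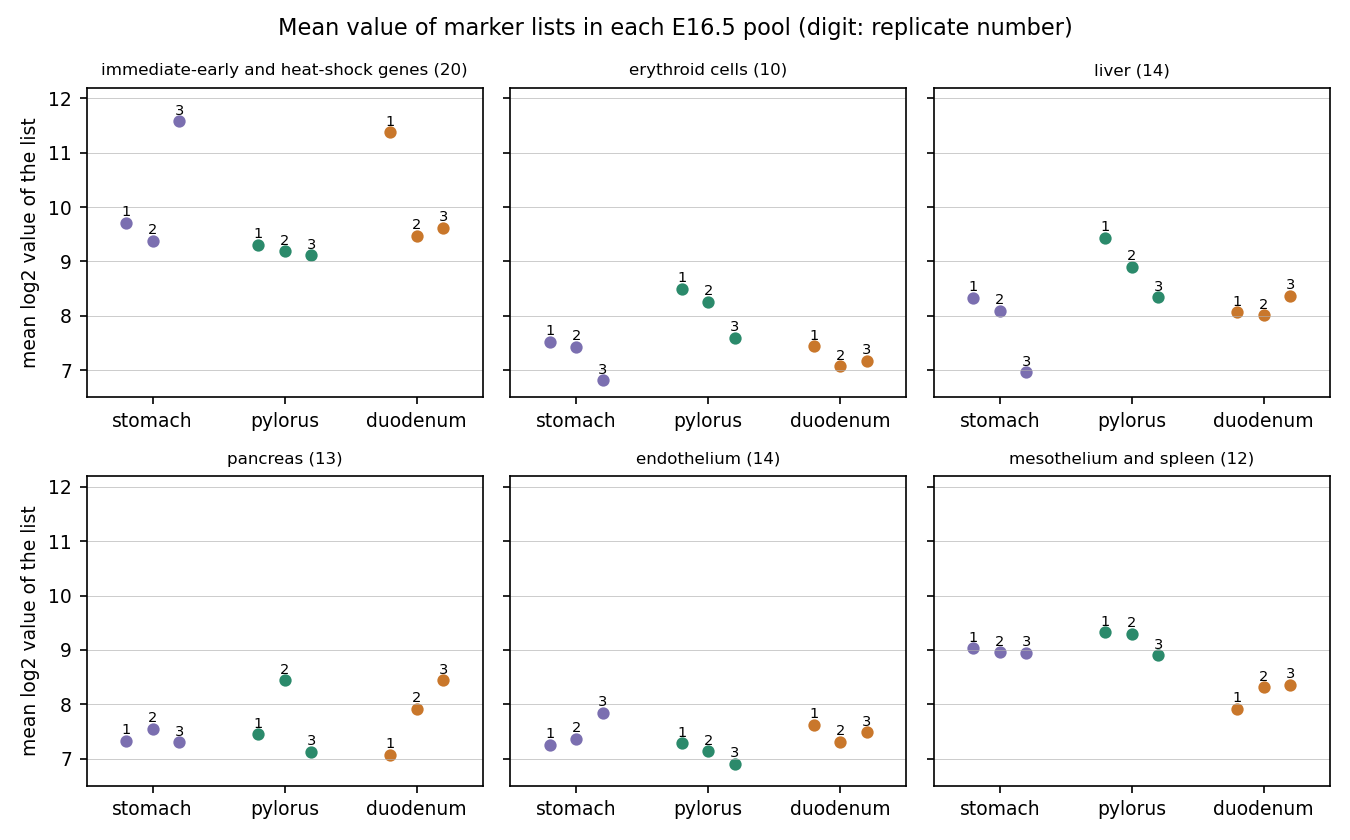
Mean log2 intensity (vertical axis) of 6 gene lists in each pool of stomach, pylorus and duodenum at E16.5, 1 point a pool. For the stress list duodenal pool 1 and stomach pool 3 stand apart, with means of 11.38 and 11.58, and the erythroid and liver means are highest in pyloric pool 1.

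Most genes of the absorptive epithelium were lower in pylorus. Of 111 genes in 5 lists (lipid absorption, brush border, digestive hydrolases, transporters and enterocyte metabolism), 62 (55.9%, against 17.4% of all genes) were lower, 6 higher and 43 not called, and the median difference was -1.02. With single pools left out in turn the number lower went from 44 (without duodenal pool 3) to 66 (without duodenal pool 1), and 43 genes were lower in all 6 of these fits. Against the stomach, 45 of the 62 were higher in pylorus, 16 were not called and 1, the actin nucleator Cobl, was lower. Most of these genes thus had pyloric levels between those of the neighbours.

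Of 15 digestive hydrolases, mostly enzymes on the brush border, 11 were lower, with a median of -1.40, though 6 were lower without duodenal pool 3 and 7 without pyloric pool 2 or 3. Naaladl1, an intestinal peptidase, read 7.72, 7.63 and 7.50 in pylorus and 11.39, 11.42 and 11.52 in duodenum. The pools of each tissue lay close together, and the difference was -3.83 ± 0.17 (adjusted p = 1.53e-08), a 14.2-fold lower level. Angiotensin-converting enzyme (Ace), which trims peptides at the cell surface, read 9.01, 8.84 and 9.05 in pylorus and 10.96, 11.90 and 12.59 in duodenum. The duodenal pools spread widely but stayed above all pyloric ones (-2.85 ± 0.30, adjusted p = 7.67e-06), and pylorus was not called against the stomach mean of 8.57 ± 0.42 (SD, n = 3, adjusted p = 0.385). Glutamyl aminopeptidase (Enpep) was lower, at -2.30 ± 0.39 (adjusted p = 0.000356), dipeptidyl peptidase Dpp4 at -1.34 ± 0.26 (adjusted p = 0.00118) and meprin subunit Mep1b at -1.90 ± 0.51 (adjusted p = 0.00911). Mep1b differed from stomach the other way, by 4.92, so its pyloric level was far above the stomach's.

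Transporters followed, with 19 of 32 lower and 3 higher at a median of -1.38. Abcc2, an apical pump for conjugates, read 7.94, 8.06 and 7.56 in pylorus, 10.63, 11.10 and 11.10 in duodenum and 4.78, 5.83 and 5.12 in stomach. Each tissue was clear of the next, and the step from duodenum was -3.09 ± 0.51 (adjusted p = 0.000272). The sodium-proton exchanger Slc9a3 was lower, at -2.91 ± 0.31 (adjusted p = 7.77e-06), although its 2 probe sets gave -2.91 and -0.25. Of solute carriers for nutrients, those for phosphate (Slc34a2, -2.36 ± 0.48, adjusted p = 0.00149), neutral amino acids (Slc6a19, -2.10 ± 0.41, adjusted p = 0.00114), glucose (Slc2a2, -1.77 ± 0.41, adjusted p = 0.0035) and small peptides (Slc15a1, -1.56 ± 0.29, adjusted p = 0.000728) were all lower. The 3 higher ones were the calcium channel Trpv6 (1.08 ± 0.16, adjusted p = 0.000106), the bicarbonate cotransporter Slc4a4 (0.62 ± 0.14, adjusted p = 0.00331) and the iron reductase Cybrd1 (0.87 ± 0.24, adjusted p = 0.0108; 0.0572 without pyloric pool 3). Not every intestinal transporter differed, since the chloride channel Cftr read 10.54, 10.66 and 10.48 in pylorus and 10.43, 10.64 and 10.60 in duodenum, with overlapping groups. The iron exporter Slc40a1 read 13.06, 13.18 and 13.09 in pylorus and 13.04, 13.28 and 13.41 in duodenum, again overlapping.

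Genes of lipid uptake and of the brush border skeleton were lower by smaller steps. Among 22 lipid genes 13 were lower (median -0.89), including the sterol exporter subunits Abcg5 (-2.05 ± 0.41, adjusted p = 0.00122) and Abcg8 (-1.46 ± 0.31, adjusted p = 0.00214). The fatty acid receptor Cd36 read 9.16, 10.43 and 9.10 in pylorus and 11.15, 11.44 and 11.67 in duodenum. No pyloric pool reached a duodenal one (-1.86 ± 0.35, adjusted p = 0.00083). Slc27a4, which activates fatty acids for transport, was lower, at -1.46 ± 0.19 (adjusted p = 3.49e-05), and Dgat1, the last enzyme of triglyceride synthesis, at -1.42 ± 0.33 (adjusted p = 0.00356). Of 16 brush border genes 9 were lower and 1 higher (median -0.98). Espn, which bundles actin in microvilli, read 7.53, 7.34 and 7.78 in pylorus, 9.45, 9.97 and 10.93 in duodenum and 7.70, 7.18 and 7.24 in stomach, so pylorus lay among the stomach pools and below all duodenal ones (-2.57 ± 0.32, adjusted p = 2.82e-05). The scaffold Pdzk1 was lower, at -2.06 ± 0.38 (adjusted p = 0.000768) and the motor Myo7b at -1.55 ± 0.32 (adjusted p = 0.00164). Cobl read 7.19, 7.15 and 7.05 in pylorus against 7.96, 8.28 and 8.20 in duodenum (-1.02 ± 0.12, adjusted p = 2.09e-05). The one higher was Prom1, a protein of membrane protrusions, at 1.47 ± 0.12 (adjusted p = 1.33e-06).

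In enterocyte metabolism 10 of 26 genes were lower and 2 higher, with a median of -0.65. The number lower was 5 when dim genes were dropped and 17 when only the 2 groups were fitted. The gluconeogenic enzymes G6pc (-1.87 ± 0.27, adjusted p = 0.000107), Fbp1 (-1.60 ± 0.35, adjusted p = 0.00252) and Pck1 (-1.11 ± 0.27, adjusted p = 0.00499) were lower together. Pck1 is named by 3 probe sets, which gave -1.11 to 0.01. Gsta4, a detoxifying transferase, went the other way: it read 13.91, 13.88 and 14.07 in pylorus, close to the stomach's 14.07, 14.25 and 14.04, and 11.19, 11.35 and 11.56 in duodenum (2.59 ± 0.19, adjusted p = 7.26e-07).

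Of the 43 absorptive genes that were not called, 24 had all 3 pyloric pools below all 3 duodenal pools. The test shares 1 spread per gene over all 6 groups. Fabp1, the liver-type fatty acid binding protein, read 14.72, 14.82 and 14.74 in pylorus and 15.06, 15.05 and 15.04 in duodenum. These values lie close to the highest of the whole data set, 15.22, and whether the probe set was saturated was not tested. Its pools at E16.5 had SDs of 0.05 and 0.01, against 2.09 and 2.24 in the same tissues at E14.5, and the result was -0.29 ± 0.90 with adjusted p = 0.827 (0.0623 with only the 2 groups fitted). The 24 were picked because these same 6 arrays did not overlap, so a fit of the 2 groups alone gives no separate support. In that fit 22 of the 24 were called lower. They included lactase (Lct, -0.81, adjusted p = 0.00154), the lipid loader Mttp (-1.05, adjusted p = 0.000527), the apolipoprotein Apoa4 (-0.49, adjusted p = 0.00774) and the brush border cadherin Cdh17 (-0.94, adjusted p = 0.000568). Of the 10 absorptive genes with a duodenal mean at or over 14, 2 were called lower, with a median of -0.66. In the test over all groups the adjusted p values of Lct, Mttp, Apoa4 and Cdh17 were 0.542, 0.354, 0.719 and 0.0728.

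Promoters of the 62 lower absorptive genes were read from RefSeq (build GRCm38.p6) because intestinal genes are classic targets of the factors HNF1, HNF4, CDX and GATA. Of the 62, 54 matched, with 69 promoters. In the 250 bases before the start, the HNF1 core site GTTAAT occurred on either strand in 11 of the 69 (15.9%), against 6.43% of all 32851 promoters in the table. The HNF4 motif CAAAGTCCA occurred in 1 (1.45%, against 0.384%), a CDX motif CCATAAA or CAATAAA in 7 (10.1%, against 6.51%) and the GATA motif AGATAA in 9 (13.0%, against 9.99%). A match of letters is a description and not a binding site, and no test was made. For comparison, the HNF1 core occurred in 2 of 17 promoters (11.8%) of the gastric genes that were higher in pylorus. The HNF4 and CDX motifs occurred in 0 of these 17. The last motif named above occurred in 3 of them (17.6%), a higher share than in the absorptive promoters (13.0%). Mesenchyme regulators higher in pylorus also had 17 promoters. The HNF1 core occurred in 1 (5.88%), a CDX motif in 2 (11.8%) and the last motif in 3 (17.6%). A full HNF1 site occurred in 0 of the 69 absorptive promoters and in 3 of all 32851. The last 90 bases before the start are shown for 4 of the 8 absorptive genes with the HNF1 core in that window, those whose difference was called in at least 5 of the 6 fits without a pool, and for Treh, which holds the HNF4 motif. Capitals mark the motif, read 5′ to 3′ on the strand of the gene.
Slc7a7, chr14:54409473-54409562, minus strand, HNF1 core 86 bases before the start: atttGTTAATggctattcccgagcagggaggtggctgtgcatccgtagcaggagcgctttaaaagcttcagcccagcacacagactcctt
Khk, chr5:30921469-30921558, plus strand, HNF1 core 60 bases before the start: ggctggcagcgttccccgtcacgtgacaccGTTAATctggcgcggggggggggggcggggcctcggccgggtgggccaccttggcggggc
Cdhr2, chr13:54701373-54701462, plus strand, HNF1 core 54 bases before the start: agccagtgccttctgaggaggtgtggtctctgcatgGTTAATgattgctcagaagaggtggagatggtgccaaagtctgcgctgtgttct
Cyp4f14, chr17:32917088-32917177, minus strand, HNF1 core on the opposite strand 31 bases before the start: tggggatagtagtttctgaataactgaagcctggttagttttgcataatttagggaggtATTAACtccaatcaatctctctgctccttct
Treh, chr9:44673143-44673232, plus strand, HNF4 motif on the opposite strand 71 bases before the start: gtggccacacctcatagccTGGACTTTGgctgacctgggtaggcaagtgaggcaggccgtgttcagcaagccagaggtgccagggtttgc

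Slc7a7, an exporter of basic amino acids, read 11.29, 11.46 and 10.90 in pylorus and 11.99, 12.66 and 12.62 in duodenum, with no overlap (-1.21 ± 0.27, adjusted p = 0.00308). Khk, which phosphorylates fructose, read 9.16, 9.04 and 9.13 in pylorus and 9.36, 9.82 and 10.07 in duodenum (-0.64 ± 0.15, adjusted p = 0.0046). The microvillar cadherin Cdhr2 read 11.21, 11.26 and 11.17 in pylorus and 12.56, 12.97 and 13.26 in duodenum (-1.72 ± 0.53, adjusted p = 0.0192), and its adjusted p was 0.0703 without duodenal pool 3. The cytochrome Cyp4f14 read 5.52, 5.46 and 5.32 in pylorus and 6.22, 6.64 and 7.47 in duodenum, again with every pyloric pool lower (-1.34 ± 0.26, adjusted p = 0.00113). Trehalase (Treh) was dim and its groups overlapped, with 5.13, 4.77 and 4.84 in pylorus and 5.06, 5.68 and 5.85 in duodenum (-0.62 ± 0.16, adjusted p = 0.00807).

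Among 25 transcription factors of the intestine 11 were lower and 2 higher, with a median of -0.51, and 7 were lower without duodenal pool 2, duodenal pool 3 or pyloric pool 3. Creb3l3, which drives lipid genes in gut and liver, read 10.97, 11.07 and 10.53 in pylorus and 11.92, 12.45 and 12.30 in duodenum (-1.37 ± 0.35, adjusted p = 0.00733). The xenobiotic receptor Nr1i3 was lower, at -1.23 ± 0.25 (adjusted p = 0.00157) and Isx, an intestinal homeobox gene, at -0.83 ± 0.21 (adjusted p = 0.00618). The GATA factors of the gut were lower by smaller amounts, Gata4 at -0.46 ± 0.12, Gata5 at -0.83 ± 0.17 and Gata6 at -0.63 ± 0.11 (adjusted p = 0.00668, 0.00171 and 0.000421). Pdx1, which marks antrum and duodenum, read 10.23, 10.06 and 10.35 in pylorus and 9.82, 10.16 and 10.36 in duodenum, so its groups overlapped. Klf4, a factor of differentiated epithelium, was higher by 1.39 ± 0.26 (adjusted p = 0.000803), as was Klf5 by 0.38 ± 0.11 (adjusted p = 0.0138).

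Secretory cells gave no single direction. Of 22 enteroendocrine genes 6 were higher, 1 lower and 15 not called, where 19.6% of all genes were higher and 17.4% lower. Their median of 0.07 turned negative with centred arrays (-0.07), without duodenal pool 1 (-0.07) and without pyloric pool 2 (-0.05). Gastrin (Gast), the antral hormone of acid secretion, read 9.57, 9.57 and 9.58 in pylorus, 6.39, 6.78 and 6.55 in duodenum and 8.74, 8.80 and 8.24 in stomach. The pyloric pools were nearly equal and above both neighbours, by 3.0 ± 0.28 over duodenum (adjusted p = 2.75e-06) and 0.98 ± 0.28 over stomach (adjusted p = 0.0204). Glucagon (Gcg) and peptide YY (Pyy) were higher by 1.48 ± 0.32 (adjusted p = 0.00235) and 0.99 ± 0.18 (adjusted p = 0.000535), whereas neurotensin (Nts) was lower, at -2.03 ± 0.31 (adjusted p = 0.000177). The duodenal hormones cholecystokinin and Gip overlapped between the groups: Cck read 10.74, 10.81 and 9.98 in pylorus and 10.61, 11.42 and 10.93 in duodenum.

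Of 18 goblet and Paneth genes 5 were higher and 4 lower, not far from the shares of all genes (19.6% higher and 17.4% lower). The guanylate cyclase ligands Guca2a and Guca2b were lower, at -2.36 ± 0.44 (adjusted p = 0.000733) and -2.49 ± 0.41 (adjusted p = 0.000266), and the goblet lectin Zg16 at -2.16 ± 0.35 (adjusted p = 0.000275). Spdef, a factor of mucous cells in both organs, was higher by 1.76 ± 0.21 (adjusted p = 2.04e-05), Creb3l1 by 1.46 ± 0.13 (adjusted p = 2.40e-06) and the disulfide isomerase Agr2 by 1.72 ± 0.27 (adjusted p = 0.00022). The main goblet mucin Muc2 read 9.73, 9.74 and 8.78 in pylorus and 8.95, 10.42 and 10.10 in duodenum, with overlap.

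**Figure D3:**
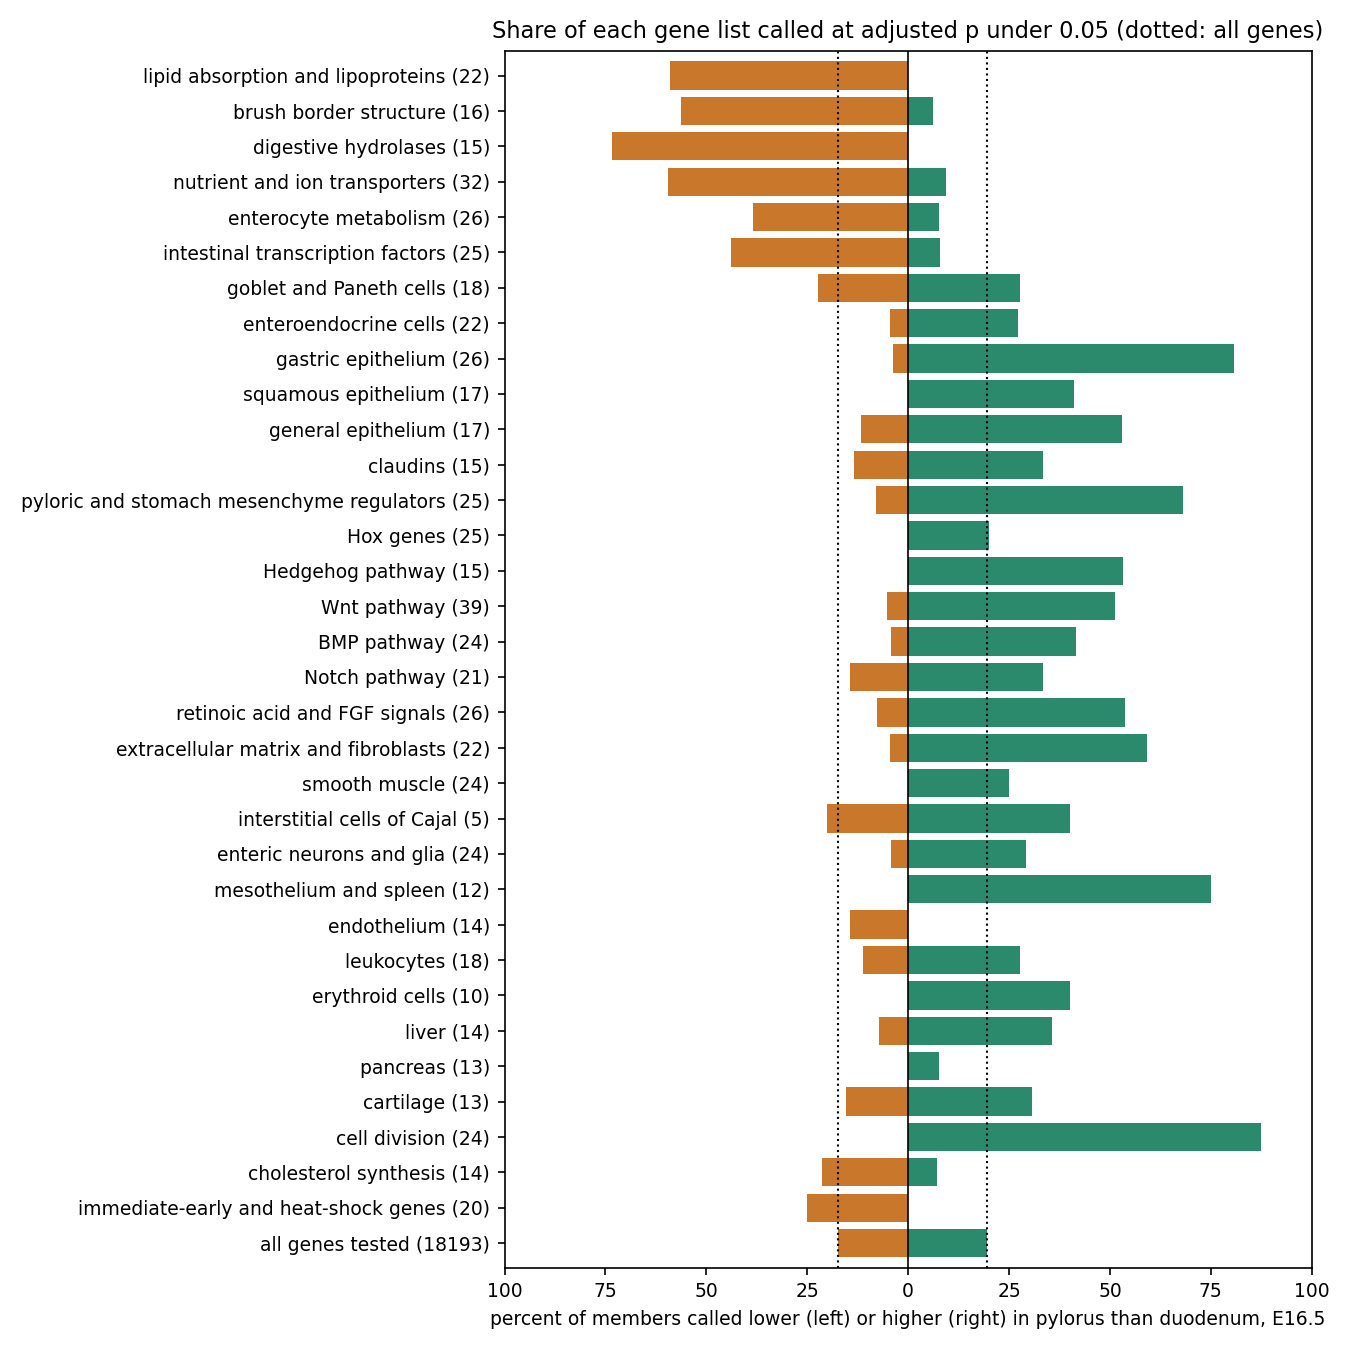
Share of each of 33 gene lists, and of all 18193 genes, called lower in pylorus (bars to the left) or higher (bars to the right), in percent of the list's members on the array. Dotted lines mark the shares of all genes, 17.4% lower and 19.6% higher.

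Gastric epithelial genes were mostly higher in pylorus: of 26 21 were higher, 1 lower and 4 not called, with a median of 2.57. The number higher was 19 to 20 with any pool left out. Gkn1, a gastrokine of surface mucous cells, read 12, 11.35 and 12.31 in pylorus, 6.83, 6.36 and 8.67 in duodenum and 12.62, 13.50 and 13.28 in stomach. Pylorus was higher than duodenum by 4.60 ± 0.44 (adjusted p = 3.68e-06), and duodenal pool 3 held the most of it. The tight junction gene of the stomach, Cldn18, was higher by 5.11 ± 0.52 (adjusted p = 5.55e-06), the annexin Anxa10 by 4.83 ± 0.54 (adjusted p = 1.22e-05), the trefoil peptide Tff2 by 3.90 ± 0.45 (adjusted p = 1.55e-05) and the mucin Muc1 by 4.0 ± 0.33 (adjusted p = 1.23e-06). The stomach factor Sox2, which opposes intestinal fate, read 9.91, 9.89 and 10.76 in pylorus, 5.74, 5.48 and 6.01 in duodenum and 11.07, 11.34 and 11.26 in stomach. Its difference was 4.44 ± 0.40 (adjusted p = 2.32e-06), while against the stomach it was -1.04 ± 0.40 (adjusted p = 0.0799), and Cdx2 in the same pools was at the duodenal level.

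Members of the list made by the acid-secreting part of the stomach are given singly. The proton pump subunit Atp4a read 7.03, 7.14 and 7.12 in pylorus, 6.44, 6.38 and 6.52 in duodenum and 12.07, 12.40 and 13.02 in stomach. It was a little above duodenum (0.65 ± 0.22, adjusted p = 0.0331, a call lost in each of the 6 fits without a pool, with adjusted p up to 0.0832) and -5.40 against the stomach (adjusted p = 9.87e-10). Its partner Atp4b read 7.61, 7.56 and 7.83 in pylorus against 7.29, 7.39 and 7.12 in duodenum and 11.94, 11.98 and 12.55 in stomach. The intrinsic factor gene Cblif, of chief cells in the mouse, and the channel subunit Kcne2 overlapped between pylorus and duodenum and were -3.74 and -3.59 against the stomach. Gastric lipase (Lipf) was the one member lower than duodenum, with 4.47, 4.96 and 4.69 in pylorus, 5.89, 7.64 and 7.32 in duodenum and 4.32, 4.18 and 4.08 in stomach. The duodenal pools were thus the high ones (-2.24 ± 0.30, adjusted p = 4.82e-05).

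Squamous genes, which mark the forestomach, were higher in 7 of 17 cases, beside 19.6% of all genes. They were lower than stomach in 14 cases, beside 8.96% of all genes. Mal, a membrane sorting protein, was the gene with the largest higher value: it read 12.47, 12.26 and 12.87 in pylorus, 5.75, 6.40 and 8.25 in duodenum and 12.73, 13.25 and 12.92 in stomach (5.73 ± 0.64, adjusted p = 1.30e-05). Sprr1a, an envelope protein, was higher by 4.09 ± 0.25 (adjusted p = 2.71e-07) and Gsdmc2 by 3.36 ± 0.37 (adjusted p = 1.06e-05). The keratin Krt4 read 7.28, 7.40 and 7.25 in pylorus and 6.44, 6.48 and 6.36 in duodenum, against 11.51, 12.25 and 12.55 in stomach. It was called higher than duodenum (0.88 ± 0.20, adjusted p = 0.00277) but stood far below the stomach (-4.79).

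The position of the pylorus between its neighbours differed from list to list. For the 914 genes with at least a 4-fold difference between stomach and duodenum, a place of 0 is the stomach mean and 1 the duodenal mean on the log2 scale. The median place was 0.48 over these genes, and 0.50, 0.53 and 0.42 in the 3 pyloric pools. Absorptive lists lay on the duodenal side at median places of 0.67 to 0.72 and intestinal transcription factors at 0.75. Among 75 absorptive genes the places ran from 0.06 (Espn) to 1.12 (S100g, a calcium-binding protein), 5 at or under 0.2 and 18 at or over 0.8. Ace and Naaladl1 were near the stomach at 0.12 and 0.14, and Cdx2 near the duodenum at 0.99. Gastric epithelium lay at 0.22 and mesenchyme regulators at 0.20, near the stomach. Squamous genes lay at 0.84 and enteroendocrine genes at 0.87.

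**Figure D4:**
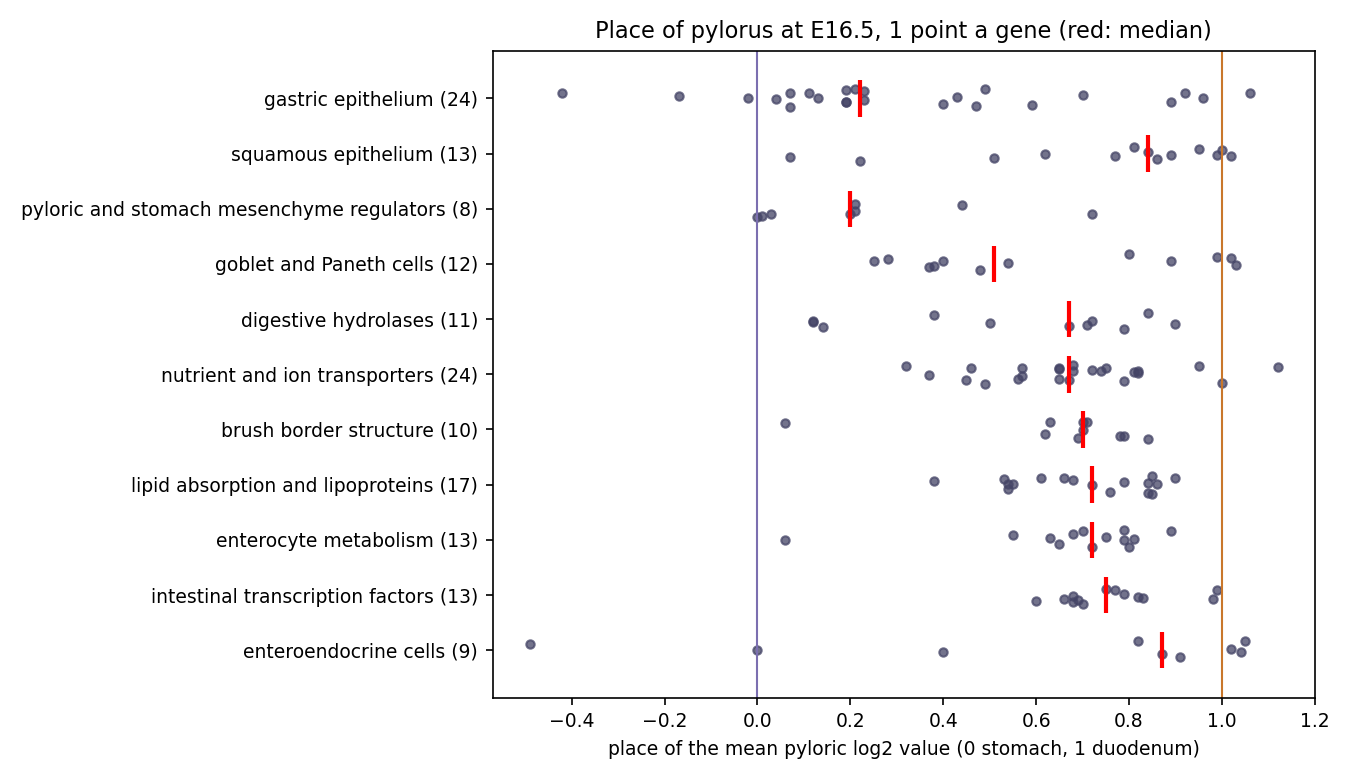
Place of the pylorus between stomach (0) and duodenum (1) on the log2 scale for genes of 11 lists (1 point a gene, red line the median). Absorptive lists centre at 0.67 to 0.72, gastric epithelium at 0.22 and mesenchyme regulators at 0.20.

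Regulators of stomach and pyloric mesenchyme were mostly higher in pylorus: 17 of 25, with 2 lower and a median of 1.16. Besides Barx1, the LIM factor Isl1 read 11.04, 10.97 and 10.85 in pylorus, 7.87, 7.84 and 7.70 in duodenum and 11.16, 10.86 and 10.82 in stomach. Pylorus lay among the stomach pools and stood 3.15 ± 0.33 above duodenum (adjusted p = 7.39e-06). The nuclear receptor Nr2f1 was higher by 2.82 ± 0.34 (adjusted p = 2.44e-05) and the homeobox gene Six2 by 2.36 ± 0.21 (adjusted p = 1.81e-06). Sox9, a sphincter factor downstream of BMP signals, read 9.54, 9.23 and 9.98 against 8.85, 8.25 and 8.18 in duodenum (1.16 ± 0.21, adjusted p = 0.000684), and Tcf21 and Meis1 were higher by 1.18 and 1.23. Prrx1, in contrast, read 7.21, 7.56 and 7.10 in pylorus and 9.19, 9.96 and 9.93 in duodenum (-2.40 ± 0.22, adjusted p = 2.32e-06), but its 6 probe sets ranged from -2.40 to 0.17. Hand1 was lower, at -0.76 ± 0.14 (adjusted p = 0.000688) and its paralog Hand2 higher by 1.58 ± 0.23 (adjusted p = 9.31e-05). Nkx2-3, which marks intestinal mesenchyme, read 9.79, 9.74 and 9.71 in pylorus and 10.78, 10.06 and 10.46 in duodenum and was not called (-0.69 ± 0.29, adjusted p = 0.0745).

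Of 25 Hox genes, which set position along the body axis, 5 were higher and 20 not called, a share near the 19.6% of all genes, and the median was 0.03. Hoxb3 read 9.64, 9.41 and 9.37 in pylorus and 8.80, 8.34 and 8.06 in duodenum (1.07 ± 0.18, adjusted p = 0.000321), and Hoxa3, Hoxa2 and Hoxc4 were higher by 0.79, 0.91 and 0.60. The count depends on the scaling: with centred arrays 4 were higher and 5 lower, and with quantile normalization 4 and 3. Without duodenal pool 2 they were 4 and 2.

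Hedgehog signals pass from epithelium to mesenchyme, and 8 of 15 genes of the pathway were higher with a median of 0.56. The ligand Shh read 11.57, 11.95 and 12.14 in pylorus, 10.13, 9.24 and 9.55 in duodenum and 12.37, 12.45 and 12.31 in stomach (2.25 ± 0.19, adjusted p = 1.60e-06). Ihh, the other gut ligand, read 10.54, 10.48 and 11.11 against 10.44, 10.19 and 10.22 and was not called (0.43 ± 0.18, adjusted p = 0.0738). Of the receiving side, the co-receptor Gas1 was higher by 1.18 ± 0.17 (adjusted p = 0.000107), the transducer Smo by 0.85 ± 0.17 (adjusted p = 0.00122) and the factors Gli2 and Gli3 by 0.90 ± 0.23 (adjusted p = 0.00662) and 0.85 ± 0.18 (adjusted p = 0.0018).

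Of 39 Wnt genes 20 were higher and 2 lower (median 0.53), and 12 of the 20 were higher in all 6 fits without a pool. The 2 lower ones were not called without pyloric pool 1, and 1 was called without duodenal pool 1, duodenal pool 3 or pyloric pool 2. The largest were secreted antagonists, Sfrp2 with 9.49, 9.31 and 8.80 in pylorus and 7.40, 7.53 and 7.48 in duodenum (1.73 ± 0.24, adjusted p = 6.77e-05) and Sfrp4 at 1.66 ± 0.16 (adjusted p = 3.38e-06). The ligand Wnt5a read 7.84, 7.90 and 7.34 in pylorus, 6.63, 6.42 and 6.48 in duodenum and 8.75, 8.60 and 8.58 in stomach. The 3 tissues did not overlap, with pylorus 1.18 ± 0.14 above duodenum (adjusted p = 1.51e-05). Wls, which carries Wnt proteins to the surface, was higher by 1.42 ± 0.21 (adjusted p = 0.000106) in its brightest probe set, while its 4 probe sets spanned -0.02 to 1.42. The receptor Fzd2 was higher by 1.20 ± 0.16 (adjusted p = 4.98e-05) and the target Myc by 0.88 ± 0.17 (adjusted p = 0.000874). Against the stomach 13 of the 39 were lower and 2 higher in pylorus.

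BMP signalling, which shapes the sphincter in the chick, had 10 of 24 genes higher and 1 lower (median 0.45), but with centred arrays 10 higher and 5 lower. Antagonists and targets were both among the higher ones. Fst, which traps activin and BMP ligands, read 8.07, 7.97 and 8.01 in pylorus and 6.04, 5.87 and 6.29 in duodenum (1.95 ± 0.38, adjusted p = 0.00096). Grem1, another antagonist, read 10.22, 9.69 and 9.31 in pylorus, 9.02, 8.24 and 7.69 in duodenum and 7.42, 7.54 and 7.38 in stomach. It was above both neighbours, by 1.42 ± 0.32 over duodenum (adjusted p = 0.00299) and 2.29 ± 0.32 over stomach (adjusted p = 0.000153). The receptor Bmpr1b was higher by 1.88 ± 0.30 (adjusted p = 0.00024) and the target genes Id1 and Id4 by 1.38 ± 0.22 (adjusted p = 0.00022) and 1.22 ± 0.14 (adjusted p = 1.24e-05). The ligand Bmp7 was the one lower, at -0.73 ± 0.13 (adjusted p = 0.000633).

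Notch genes were split, 7 higher and 3 lower of 21, where 19.6% of all genes were higher and 17.4% lower. The receptor Notch2 was higher by 1.48 ± 0.18 (adjusted p = 1.94e-05) in 1 of its 2 probe sets, the other giving -0.09. The ligand Dll1 and Hes6, a Hes-family factor, were lower, at -0.87 ± 0.20 (adjusted p = 0.0036) and -0.63 ± 0.11 (adjusted p = 0.000352).

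Retinoic acid and FGF genes were higher in 14 of 26 cases and lower in 2 (median 0.53). Without duodenal pool 2, duodenal pool 3 or pyloric pool 2, 9 were higher, and without duodenal pool 1, duodenal pool 2 or pyloric pool 1, 1 was lower. The retinoid-binding protein Crabp1 read 8.87, 8.88 and 7.89 in pylorus, 5.83, 5.93 and 6.47 in duodenum and 7.56, 7.56 and 7.22 in stomach (2.47 ± 0.32, adjusted p = 3.54e-05). The receptor Rarb was higher by 1.59 ± 0.23 (adjusted p = 8.22e-05). Of the retinoic acid synthases, Aldh1a2 of mesenchyme and mesothelium was higher by 0.61 ± 0.16 (adjusted p = 0.00849) and Aldh1a3 lower, at -1.76 ± 0.32 (adjusted p = 0.000664). Etv5 and Etv4, which FGF signals induce, were higher by 1.99 ± 0.22 (adjusted p = 1.09e-05) and 0.89 ± 0.19 (adjusted p = 0.00162).

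Of 22 matrix and fibroblast genes 13 were higher and 1, Fbln1, lower (median 0.71). Col12a1, a collagen of dense connective tissue, read 9.57, 9.71 and 8.79 in pylorus and 7.51, 7.37 and 7.28 in duodenum (1.97 ± 0.23, adjusted p = 1.53e-05), although its 4 probe sets ranged from -0.10 to 1.97. Col5a2 was higher by 1.36 ± 0.19 (adjusted p = 7.20e-05), Postn, an adhesion protein, by 1.15 ± 0.15 (adjusted p = 3.99e-05) and the abundant collagen Col3a1 by 0.85 ± 0.10 (adjusted p = 1.76e-05). Against the stomach 10 of the 22 were lower. Mesothelial and splenic genes were higher in 9 of 12 cases (median 1.0), among them the mesothelial factor Wt1 at 1.68 ± 0.27 (adjusted p = 0.00021), Bnc1 at 1.78 ± 0.40 (adjusted p = 0.00282) and the surface protein Msln at 1.40 ± 0.26 (adjusted p = 0.000703).

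Smooth muscle genes were near the share of all genes: 6 of 24 were higher with a median of 0.30. The count was 3 with 1 lower when arrays were centred, and 3 without duodenal pool 2 or pyloric pool 1. Myocd, the cofactor that switches on the muscle program, read 9.25, 9.26 and 9.08 in pylorus and 8.42, 7.66 and 7.53 in duodenum (1.33 ± 0.25, adjusted p = 0.000715), though its other probe set gave 0.17. Synm, an intermediate filament, was higher by 1.33 ± 0.15 (adjusted p = 1.53e-05). The actin Acta2 read 14.23, 13.96 and 13.89 in pylorus and 13.61, 13.60 and 13.84 in duodenum (0.34 ± 0.12, adjusted p = 0.0301). It was not called with centred arrays (adjusted p = 0.142), nor without pyloric pool 1, duodenal pool 1 or duodenal pool 2 (0.143, 0.0792 and 0.0931).

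Pacemaker cells of the gut, the interstitial cells of Cajal, are marked by Kit and Ano1. Kit read 9.88, 9.92 and 9.99 in pylorus, 8.23, 7.80 and 7.47 in duodenum and 11.29, 11.14 and 10.73 in stomach, which placed pylorus between its neighbours and 2.10 ± 0.24 above duodenum (adjusted p = 1.72e-05). Ano1, their chloride channel and also an epithelial gene, was higher by 2.29 ± 0.28 (adjusted p = 2.35e-05). These were 2 of 5 genes in the list, whose median was 0.15. Thbs4, a matrix protein, was lower, at -0.65 ± 0.20 (adjusted p = 0.0171), but not without duodenal pool 2, duodenal pool 3 or pyloric pool 3 (adjusted p up to 0.0867), and Cd34 and Prkcq overlapped between the groups. Of 24 genes of enteric neurons and glia 7 were higher and 1 lower (median 0.16), where 19.6% of all genes were higher and 17.4% lower. The growth-cone protein Stmn2 read 11.15, 11.08 and 10.82 in pylorus and 8.83, 9.67 and 9.81 in duodenum (1.58 ± 0.22, adjusted p = 7.34e-05), and the neuronal factors Phox2a and Elavl4 were higher by 1.27 ± 0.22 (adjusted p = 0.000445) and 1.08 ± 0.18 (adjusted p = 0.000312). The glial protein S100b was the one lower, at -0.87 ± 0.16 (adjusted p = 0.000629).

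Cell division genes were higher in 21 of 24 cases, by small steps with a median of 0.60. Their mean was 11.03, 10.91 and 10.95 in the pyloric pools, 10.71, 10.24 and 10.11 in the duodenal pools and 11.10, 10.96 and 10.98 in the stomach pools. Duodenal pool 1, the pool with high immediate-early genes, was the highest of its group and still under all pyloric pools, and without it 21 were higher at a median of 0.83. When only the 2 groups were fitted 13 were higher. The mitotic kinase Aurkb read 9.36, 9.38 and 9.20 in pylorus and 8.50, 8.55 and 7.94 in duodenum (0.98 ± 0.14, adjusted p = 6.95e-05), and Top2a and Ccnb2 were higher by 0.89 ± 0.12 (adjusted p = 5.94e-05) and 0.83 ± 0.11 (adjusted p = 4.85e-05).

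General epithelial genes were higher in 9 of 17 cases and lower in 2, with a median of 0.52. Neither of the 2 was called lower without duodenal pool 3, pyloric pool 1 or pyloric pool 2, and 1 was without duodenal pool 1 or 2. Krt19 read 14.16, 14.16 and 14.05 in pylorus and 12.69, 12.94 and 12.74 in duodenum (1.33 ± 0.11, adjusted p = 1.60e-06), and Krt18 and Esrp1 were higher by 1.11 and 1.17. The cadherin Cdh1 read 12.93, 13.12 and 13.37 in pylorus and 12.95, 12.86 and 12.75 in duodenum and was not called (0.29 ± 0.13, adjusted p = 0.0887). Of 15 claudins 5 were higher (3 without duodenal pool 3 or pyloric pool 2) and 2 lower, where 19.6% of all genes were higher and 17.4% lower. Neither of the 2 was called without duodenal pool 2, and 1 was without duodenal pool 3, pyloric pool 1 or pyloric pool 3. The largest of the higher claudins were Cldn6 at 2.28 ± 0.35 (adjusted p = 0.000157) and Cldn23 at 1.0 ± 0.13 (adjusted p = 5.39e-05), beside Cldn18. The median of 0.11 turned negative with centred arrays. Of 14 genes of cholesterol synthesis 3 were lower, a share near the 17.4% of all genes, and 1 higher, led by Dhcr7 at -1.06 ± 0.16 (adjusted p = 0.00012). Cartilage genes were divided, 4 higher (2 without duodenal pool 2 or pyloric pool 1) and 2 lower of 13, beside the same 19.6% and 17.4% of all genes. Col9a1 at 3.38 ± 0.37 (adjusted p = 1.14e-05) and Col11a1 at 1.60 ± 0.23 (adjusted p = 7.89e-05) were the largest.

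Several of the largest differences lay outside the lists. Meltf, an iron-binding surface protein, averaged 9.67 ± 0.30 (SD, n = 3) in pylorus, 13.76 ± 0.43 in duodenum and 7.24 ± 1.19 in stomach (-4.10 ± 0.44, adjusted p = 8.40e-06). Abcb11, known as the bile salt export pump of liver, read 7.51, 7.92 and 7.59 in pylorus and 10.46, 11.44 and 11.88 in duodenum (-3.59 ± 0.30, adjusted p = 1.40e-06). Both were higher in pylorus than in stomach, by 2.43 and 2.01. Bst1, a surface cyclase, and Dpep1, a dipeptidase, lay at the stomach's level instead: they were lower than duodenum, at -3.58 ± 0.42 (adjusted p = 1.87e-05) and -3.05 ± 0.26 (adjusted p = 1.60e-06) and not called against stomach. The hyaluronidase Hyal5 (-3.36), the hormone gene Insl5 (-3.24), Paqr9 (-3.56), Prodh2 (-3.0) and Nox4 (-2.98) followed. Of the largest higher ones outside the lists, Sptssb, a subunit of sphingolipid synthesis, read 13.21, 13.34 and 13.28 in pylorus and 6.97, 7.43 and 9.29 in duodenum (5.38 ± 0.49, adjusted p = 2.32e-06). Ugt8a, another sphingolipid enzyme, and the surface protein Plet1 were higher by 4.21 ± 0.44 (adjusted p = 7.32e-06) and 4.15 ± 0.34 (adjusted p = 9.31e-07), with other probe sets at 1.22 and 0.01.

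Genes outside both neighbours were few: 266 (1.46% of all tested) were above both stomach and duodenum, and 163 (0.896%) below both. Nepn, a secreted proteoglycan of fetal endoderm, was furthest above. It read 11.46, 11.66 and 11.21 in pylorus, 7.33, 7.43 and 7.37 in duodenum and 7.68, 7.68 and 6.69 in stomach, with differences of 4.07 ± 0.35 and 4.09 ± 0.35 (adjusted p = 1.60e-06 and 1.35e-06). The uroplakin Upk1a was above by 2.03 and 2.29, the BMP-family ligand Gdf10 by 3.11 and 1.45 and Col9a1 by 3.38 and 2.21. Erythroid genes (Hbb-y, Slc4a1, Hemgn and Alas2) made up 4 of the 10 furthest above both. Furthest below both was the pancreatic isomerase Pdia2, at -1.53 and -2.51. The integrin subunit Itgb4 (-1.25 and -0.98) and the collagen Col7a1 (-1.28 and -0.86) were also among the 10. The remaining called genes divided as follows. Between the neighbours lay 981 genes (above stomach, below duodenum) and 542 (below stomach, above duodenum), and 2756 higher and 2023 lower ones were not called against the stomach.

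The same comparison at E14.5 gave few calls: 154 genes (0.846%), 51 higher (0.280%) and 103 lower (0.566%), with 1374 at an unadjusted p under 0.05. The duodenum counts there as n = 2, and a missing call at E14.5 does not show that the tissues were alike. The change of the difference from E14.5 to E16.5 was therefore tested itself. It was called for 3561 genes (19.6%), 2286 toward pylorus (12.6%) and 1275 toward duodenum (7.01%). The count was 1673 without duodenal pool 3 of E14.5, and with centred arrays the share toward pylorus went from 64.2% to 36.6%. Of the 6731 genes called at E16.5, 3327 also had a called change with age. Of the 154 called at E14.5, 54 were called in the same direction at E16.5 and 23 in the opposite one.

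The median difference of the 111 absorptive genes went from 0.06 at the earlier age to -1.02 at the later, and the change was called toward duodenum for 36 and toward pylorus for 4. The E14.5 pools were unlike: over bright probe sets pyloric pool 1 differed from pools 2 and 3 by SDs of 0.48 and 0.439, against 0.166 between those. Lct had E14.5 SDs of 2.3 in pylorus and 2.51 in duodenum, whereas Naaladl1 had 0.34 and 0.26. The median of 0.06 thus averages unlike pools and does not show that the tissues were alike. Naaladl1 differed by 0.08 ± 0.19 at E14.5, so the change was -3.91 ± 0.26 (adjusted p = 3.71e-06). Abcc2 changed by -3.89 ± 0.76 (adjusted p = 0.00311) and Espn by -2.62 ± 0.48 (adjusted p = 0.00214). Gastric genes had a median of 0.70 at E14.5, with 4 called higher, and 12 of 26 changed toward pylorus and 1, Lipf, toward duodenum. Sox2 differed by 1.11 ± 0.45 at E14.5 and changed by 3.34 ± 0.60 (adjusted p = 0.00194), and the sulfotransferase Sult1c2 by 4.79 ± 0.47 (adjusted p = 7.40e-05).

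Of 25 mesenchyme regulators 6 were called higher already at E14.5. Barx1 differed by 3.24 ± 0.26 at E14.5 (adjusted p = 1.13e-05) and its change was not called (0.31 ± 0.35, adjusted p = 0.586). Six2 was likewise higher at E14.5, by 3.10 ± 0.23 (adjusted p = 6.78e-06). Nkx2-5 was higher by 2.68 ± 0.20 at E14.5 (adjusted p = 6.78e-06), and its lead over duodenum became smaller by E16.5 (-1.22 ± 0.27, adjusted p = 0.00617). Gata3 read as 3.30 ± 0.39 at E14.5 (adjusted p = 0.000718) and its change as -1.54 ± 0.52 (adjusted p = 0.0496).

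Neuronal genes differed the other way at E14.5. Of 24 neuronal and glial genes 8 were called lower at E14.5 (median -0.68), and 14 changed toward pylorus. Stmn2 went from -0.71 ± 0.25, not a called difference at E14.5, to 1.58 ± 0.22 (change adjusted p = 0.00061). Shh went from -1.01 ± 0.22 at E14.5 to 2.25 ± 0.19 (change adjusted p = 6.42e-05). Of 39 Wnt genes 4 were lower at E14.5 and 18 changed toward pylorus, and 13 of 24 cell division genes did so from a median of -0.10. Matrix genes changed toward pylorus in 10 of 22 cases.

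**Figure D5:**
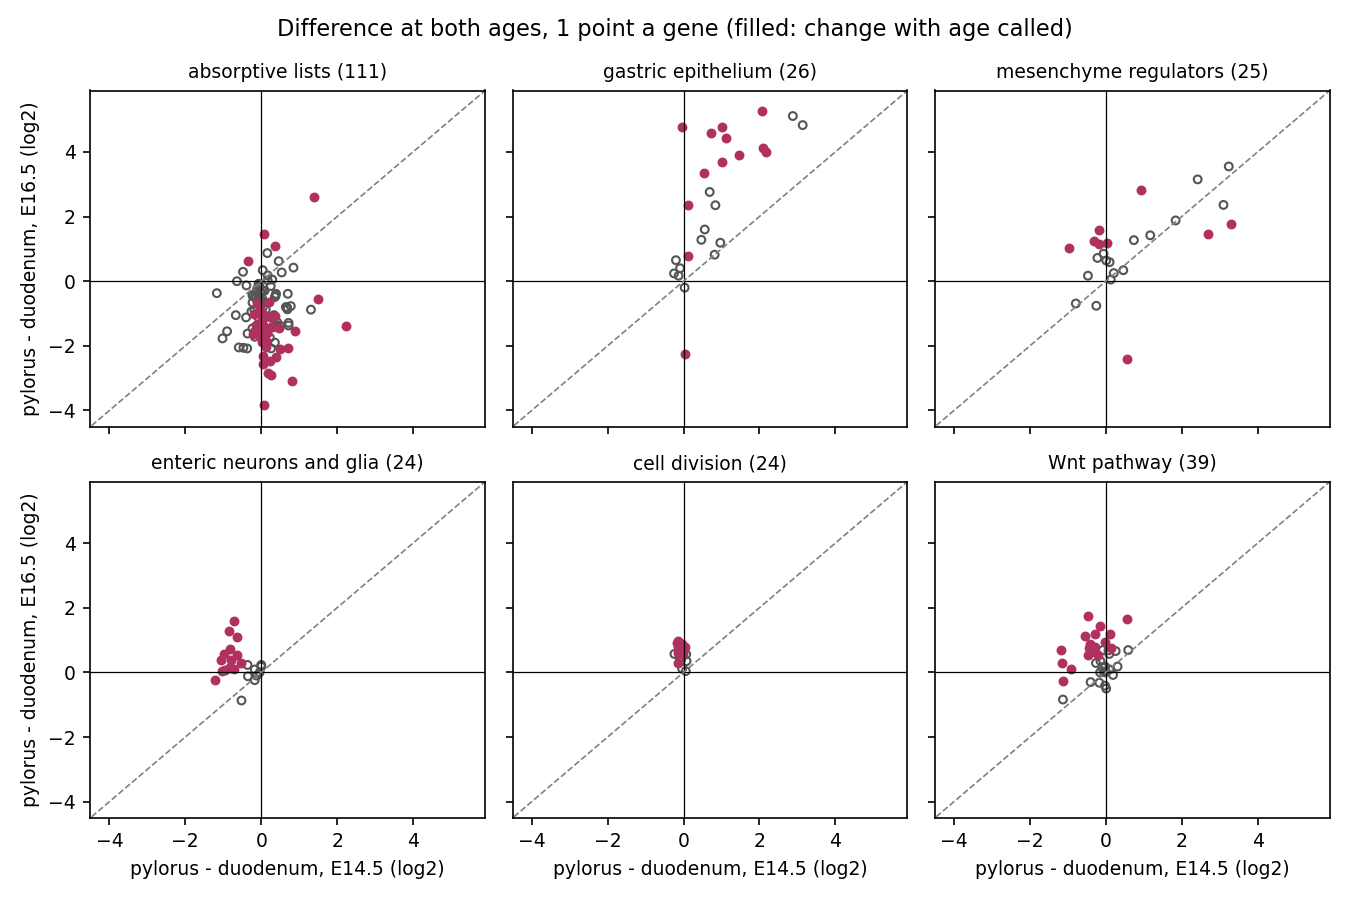
Pylorus minus duodenum at E14.5 (horizontal) against E16.5 (vertical), in log2 units, for 6 gene lists, 1 point a gene; filled points have a called change with age and the dashed line marks equal differences. Most absorptive genes fall below the line, and most neuronal, Wnt and cell division genes lie above it.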

How the data were processed

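RNA of 18 pools of mouse embryonic gut was measured on Affymetrix arrays of 45101 probe sets, made with TRIzol and RNeasy extraction and biotinylated cRNA per the labels' protocols. The authors deposited log2 values; the submitters' processing notes name RMA and GCOS, with no version. RMA gives every array nearly the same distribution (medians 6.75 to 6.92), so a change common to most genes cannot be seen, and the number of pools limits the precision.

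Of the probe sets 34945 had 1 gene symbol in the platform table, 932 had several, 9160 had none and 64 were controls. Those with 1 symbol gave 18193 genes, each by its probe set with the highest mean. Of the single-symbol probe sets 34754 were found in the RefSeq table, and 0 symbols needed an update. Duodenal arrays 1 and 2 of E14.5 were averaged, which left 17 samples in 6 groups, fitted together with limma 3.58.1 in R 4.3.3 (Python 3.11.15 for the rest). Every adjusted p comes from this fit unless another fit is named with it. All fits used limma with Benjamini-Hochberg adjustment over all genes fitted and a threshold of 0.05, and an SE beside a difference is limma's. In data simulated for the comparison of pylorus with duodenum at E16.5, over 18193 genes, 43.3%, 86.6% and 100% of differences of 0.5, 1 and 2 log2 units were called. Only 67, 67 and 66 genes were given these differences, and normal noise had 1 spread per gene for all groups. The measured data have far more calls and unequal spreads between groups, so these percentages need not hold for them. All 710 list entries were looked up and 654 were on the array.

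The members and the 33 lists were chosen with earlier results of these data known. The genes named were the 15 largest higher and lower called ones whose pools did not overlap, and up to 6 called members a list. Added to them were the 8 largest called changes with age each way among genes also called at E16.5, the 10 furthest outside both neighbours, 7 tissue markers and members not called as examples. Clone and predicted-gene symbols were passed over in the rankings over all genes. Aldh1a2, Atp4a, Bmp7, Cobl, Col3a1, Cybrd1, Dgat1, Dpp4, Fbln1, Gata4, Gata5, Gata6, Hand1, Hand2, Hes6, Isx, Khk, Klf5, Lipf, Meis1, Myc, S100g, Slc15a1, Slc2a2, Slc4a4, Slc7a7, Sox9, Tcf21, Tff2, Treh and Trpv6 fall outside that rule and were chosen after their values were seen. The alternatives tried were array centring, quantile normalization, a filter on dim genes, the mean over the probe sets of each gene, array weights, all 18 arrays as samples, only the groups compared, the replicate number as a block and each pool left out.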

Additional observations from a re-analysis of the deposited data

Results flagged for a closer look

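The test of the change in the pylorus-duodenum difference from E14.5 to E16.5 called 3561 genes. The count was 1673 without duodenal pool 3 of E14.5. With centred arrays the share of calls toward pylorus went from 64.2% to 36.6%. Among the largest shifts toward duodenum were Meltf (-4.27), Naaladl1 (-3.91), Abcc2 (-3.89), Abcb11 (-3.67), Bst1 (-3.67), the endopeptidase Mme (-3.64), Paqr9 (-3.57) and Hyal5 (-3.54), in log2 units. The shifts toward pylorus included those of Sptssb (4.81), Sult1c2 (4.79), Gkn1 (3.88), Gkn2 (3.75), Plet1 (3.53), Sox2 (3.34), Shh (3.26) and Sprr1a (3.23). These were the largest among genes that were also called at E16.5, with clone and predicted-gene symbols passed over. The explanation of these shifts was not tested.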

How the results depend on the processing

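The count of 6731 genes called between pylorus and duodenum lay between 4905 (replicate block) and 8284 (arrays centred) over the alternatives, and between 5203 and 6792 without 1 pool. The number lower went from 3167 to 5716 with centred arrays and to 2101 with the replicate block. Deviations from the group means correlated at r of -0.072, 0.35 and -0.12 for pyloric and duodenal pools 1, 2 and 3. Pyloric and stomach pool 2 gave 0.383. Pools of unlike number gave values of like size, 0.301 for pyloric pool 3 with duodenal pool 1 and -0.335 with duodenal pool 2. Deviations within a group cancel out, so these values do not single out pool 2. Whether the replicate number stands for a shared step was not tested, so a call lost under the block cannot be read either way. The change with age, called for 3561 genes, ranged from 1673 to 4386 without 1 pool, from 1135 to 2625 toward pylorus and from 538 to 1761 toward duodenum. The shifts toward pylorus numbered 1460 with centred arrays, and those toward duodenum 2524 with centred arrays, 1973 with array weights and 845 with only the groups compared. The comparison with stomach, 3894 genes, ranged from 2482 to 3981 without 1 pool, and its lower genes from 947 to 1731. Quantile normalization moved the share of higher calls from 64.2% to 53.6% for the change with age and from 58.1% to 44.5% against stomach. Of 232 values of named genes, 223 kept their direction and call with centred arrays, 217 with the replicate block, and between 204 (without duodenal pool 3 or pyloric pool 1) and 215 (without duodenal pool 1) with 1 of the 6 pools left out. Actn1, a muscle cross-linker at 0.37, went to -0.08 with the mean of its probe sets. The cause of these shifts was not tested. Small differences are limited by 3 pools a group and by probe sets that disagree: of 3724 called genes with over 1 probe set, 2694 had all on 1 side.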
